A study of Homo sapiens with 30 samples.

Results

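The 75 genes described here are the replication-type histone genes of the human HIST clusters, taken by their symbols (HIST followed by a cluster digit and H) from a whole-cell table of 39126 genes. They comprise 8 H1, 16 H2A, 23 H2B, 12 H3 and 16 H4 genes, pseudogenes included. In the nuclear table of 55548 genes, 73 of them were found by the same Ensembl identifiers, all except HIST2H4A and HIST2H4B. The libraries came from Hues6, a human embryonic stem cell line that was either labelled as a knockout (KO) of QKI or wild type (WT), and the design asked how loss of this RNA-binding protein, a regulator of splicing, acts on differentiation to cardiomyocytes. Groups of 3 libraries were labelled KO at D0 and WT at D0, which were pluripotent cells without CHIR. The next were KO at D4 and WT at D4, the cardiac progenitor stage, and KO at D8 and WT at D8, the cardiomyocyte stage. D8 nuclear RNA had 3 KO and 3 WT libraries as well. A further 3 libraries with QKI siRNA and 3 with control siRNA came from 293T, a human embryonic kidney line, and enter only through the authors' deposited splicing table. Differentiation was started with CHIR, which turns on WNT signalling by blocking GSK3, at 1.25 uM in KO and 1.5 uM in WT, each with 1.5 ng/mL BMP4, so genotype and CHIR dose cannot be told apart after D0. The labels do not say how many KO clones were used, nor whether the 3 libraries of a group were cultured separately. The p-values therefore measure only the spread between these libraries, which may be technical.

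Core histones H2A, H2B, H3 and H4 form the nucleosome around which DNA is wound, and H1 binds the linker DNA between nucleosomes. The genes of the HIST clusters are transcribed mainly in S phase, and most lack introns. Their mRNAs typically end in a conserved stem-loop, bound by the protein SLBP, in place of a poly(A) tail, although some are also made as longer polyadenylated RNAs when cells leave the cycle. The whole-cell libraries were labelled as polyA RNA and the nuclear ones as nuclear RNA. The fraction, the selection of RNA and the table therefore cannot be told apart, and whole-cell values count mainly those histone RNAs that passed a poly(A) step. Coding sequences within a core histone type are similar, so reads could be split or lost between copies, and the value of any single gene is uncertain to that extent.

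The stem-loop is shown because it is the feature that sets these mRNAs apart. All 75 genes were matched to the transcripts of GENCODE 29 (GRCh38), 40 by identifier and 35 by symbol. The search was not for any hairpin but for the conserved histone form, with some bases of stem and loop fixed. A perfect match of this form, with 6 base pairs and a loop of 4 bases, was found in 27 of the HIST genes. Among all 19684 protein-coding genes of that annotation 60 held it, or 0.305%. The 5 forms are written as DNA, with the loop in capitals.
HIST1H2AC, HIST2H2BE, HIST3H2A and 11 others: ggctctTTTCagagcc
HIST1H2BC, HIST1H2BD, HIST1H2BF and HIST1H3G: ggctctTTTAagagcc
HIST1H4B, HIST1H4E, HIST1H4H, HIST1H4J and HIST4H4: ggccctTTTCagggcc
HIST1H4I, HIST2H4A and HIST2H4B: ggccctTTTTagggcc
HIST1H3E: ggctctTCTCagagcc
The H2A, H2B and H3 genes shared the stem ggctct, and the H4 genes shared ggccct. In 20 of the 27 genes the annotated transcript went on for 100 or more bases past the hairpin, as in HIST1H2AC (1128 bases) and HIST2H2BE (1729 bases). For the other 48 genes this form was not in the annotated transcripts. Several of these had only 1 short annotated transcript, such as HIST1H2BK (381 bases), HIST1H3C (411 bases) and HIST1H4D (312 bases). Such an annotation may leave out the 3′ end, so a missing match does not show that the RNA lacks a hairpin.

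Promoters are shown for 4 genes that the results return to: HIST1H2BJ and HIST1H2BK, H2B genes higher in KO at D0, and the neighbours HIST1H3C and HIST1H2BB, the lowest in nuclear RNA. RefSeq start sites (GRCh38.p14) were available for 57 of the 75 genes. Within the 300 bases around the start, ATTTGCAT (the octamer bound by OCT factors), CCAAT and TATAAA were searched on both strands. A gene was counted if any of its windows held a match. The octamer lay at 40.4% of the 57 HIST genes and at 2.19% of all 27305 genes with a promoter. It was found at 9 of 12 H2A and 13 of 17 H2B genes, and at none of the H1 or H4 genes. CCAAT lay at 82.5% of these HIST genes and 39.7% of all genes with a promoter, and TATAAA at 64.9% and 14%. Below are the 250 bases before the start of HIST1H2BJ (chr6:27132796-27133045, minus strand), HIST1H2BK (chr6:27146859-27147108, minus strand), HIST1H3C (chr6:26045134-26045383, plus strand) and HIST1H2BB (chr6:26043714-26043963, minus strand), with each match in capitals. Adjoining or overlapping matches run together, as in TTTATAAA.
HIST1H2BJ: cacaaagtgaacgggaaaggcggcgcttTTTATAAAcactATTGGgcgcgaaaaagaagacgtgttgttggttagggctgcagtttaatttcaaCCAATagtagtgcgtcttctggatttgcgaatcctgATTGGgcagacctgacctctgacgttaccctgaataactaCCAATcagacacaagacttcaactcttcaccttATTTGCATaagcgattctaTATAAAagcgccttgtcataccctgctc
HIST1H2BK: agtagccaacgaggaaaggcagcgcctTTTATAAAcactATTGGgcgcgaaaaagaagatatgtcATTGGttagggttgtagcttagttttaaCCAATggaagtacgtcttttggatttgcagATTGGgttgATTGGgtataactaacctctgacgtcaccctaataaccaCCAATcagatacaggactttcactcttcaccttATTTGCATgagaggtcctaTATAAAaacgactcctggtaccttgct
HIST1H3C: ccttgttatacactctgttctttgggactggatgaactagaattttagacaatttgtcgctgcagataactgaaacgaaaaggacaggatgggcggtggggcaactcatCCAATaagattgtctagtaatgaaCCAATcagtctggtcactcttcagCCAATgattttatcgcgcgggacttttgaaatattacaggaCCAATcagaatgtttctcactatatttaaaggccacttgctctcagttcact
HIST1H2BB: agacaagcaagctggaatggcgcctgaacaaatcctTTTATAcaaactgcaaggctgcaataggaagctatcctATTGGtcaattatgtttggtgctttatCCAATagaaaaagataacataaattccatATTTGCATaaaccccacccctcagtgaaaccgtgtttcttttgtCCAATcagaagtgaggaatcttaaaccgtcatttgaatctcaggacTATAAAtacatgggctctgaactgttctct
HIST1H2BJ and HIST1H2BK each had the octamer and TATAAA close to the start, in the order octamer then TATAAA, and HIST1H3C had 4 CCAAT matches and neither of the others in this window. The upstream stretch of HIST1H2AG, on the plus strand, spans chr6:27132793-27133042, so both genes have nearly the same bases upstream, read from opposite strands. A match is a description of the letters and not of binding.

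QKI, the targeted gene, was lower in KO than in WT libraries at D0 and D4 only. It had 39.4 ± 3.3 CPM (counts scaled to the TMM-adjusted total of each library) in KO and 293 ± 7.4 CPM in WT libraries at D0 (SD, n = 3 each; log2 fold change -2.90). At D4 it had 78.2 ± 10 CPM in KO and 146 ± 8.9 CPM in WT (log2 fold change -0.90). At D8 the libraries labelled KO had 335 ± 5.3 CPM and WT had 324 ± 42 CPM (log2 fold change 0.05, adjusted p = 0.66). In nuclear RNA it was higher in the libraries labelled KO, with 499 ± 31 CPM against 158 ± 25 CPM in WT (log2 fold change 1.66). At D8 and in nuclear RNA every direction below is therefore that of the libraries labelled KO. Total counts ran from 40001076 to 89948185 in whole-cell libraries and from 6549676 to 15030590 in nuclear ones. HIST genes took 0.0294% of counts in D0 KO and 0.00914% in D0 WT libraries. Their share lay between 0.00202% and 0.00656% in D4 and D8 whole-cell libraries, and it was 0.14% in nuclear KO and 0.33% in nuclear WT libraries.

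At D0, most HIST genes were higher in KO than in WT cells. Summed over all 75 genes, the level ran from 280 to 357 CPM in KO libraries and from 92.3 to 106 CPM in WT libraries, with no overlap. A filter on low counts left 51 of the 75 genes for testing. Of these, 36 were called higher and 2 lower at an adjusted p under 0.05, against 21.4% of all 21761 tested genes called higher and 20.9% called lower. A gene could pass the filter through the 3 libraries of 1 group alone. HIST1H3D and HIST1H2AM passed it only through D0 KO, so their D0 calls are not independent of the filter. The median log2 fold change was 1.12 over the tested HIST genes and -0.012 over all tested genes. Without the filter, 35 of the 75 genes were called higher and 2 lower, against 11.7% and 11.2% of all 39126 genes. In these bulk libraries, fewer cells of a type and less RNA per cell cannot be told apart.

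**Figure D1:**
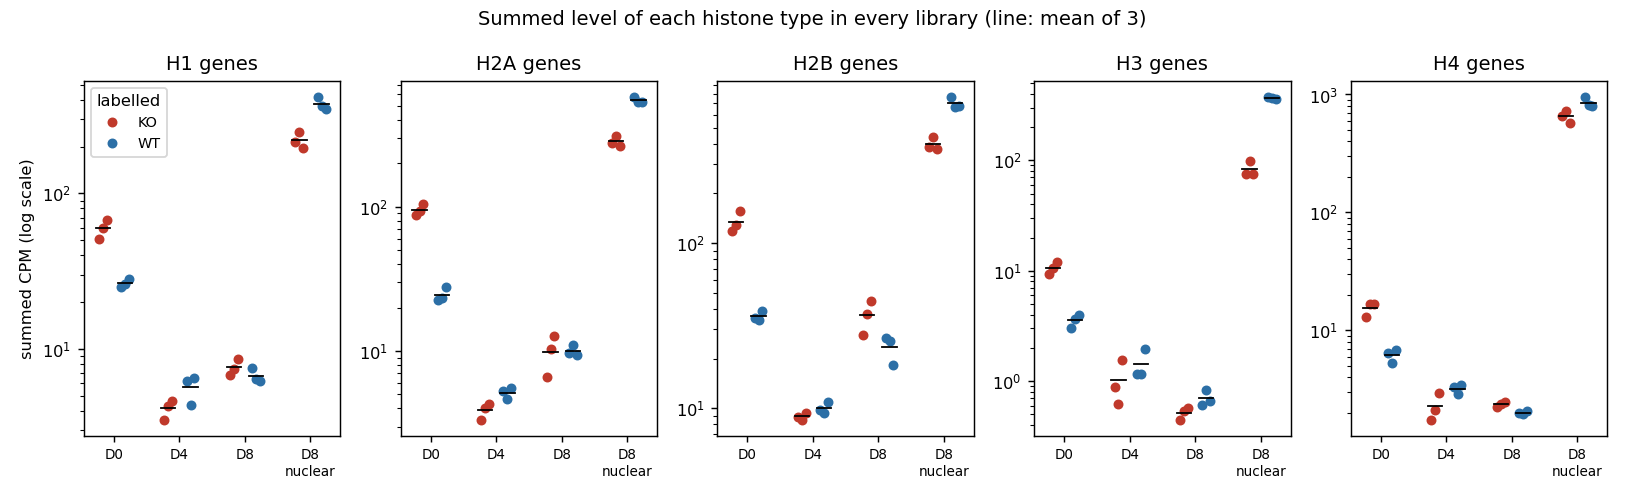
Summed CPM (log scale) of the genes of each histone type in every library by day and RNA fraction, with libraries labelled KO on the left of each pair in red and WT on the right in blue; lines are means of 3. All 5 types are higher in KO at D0, and all 5 are lower in the libraries labelled KO in nuclear RNA.

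Among the linker histones, HIST1H1C rose and 2 others fell. HIST1H1C, which encodes histone H1.2, had 49.8, 58.5 and 65.6 CPM in KO libraries and 23.6, 23.7 and 25.9 CPM in WT libraries at D0. All KO libraries lay above all WT libraries, and the log2 fold change was 1.25 (SE 0.12, adjusted p = 6.7e-08). HIST1H1E (H1.4) had 0.0828, 0.166 and 0.229 CPM in KO and 0.463, 0.407 and 0.58 CPM in WT libraries. Here the groups did not overlap in the other direction, and the gene fell by 1.57 on the log2 scale (SE 0.37, adjusted p = 0.0019). HIST1H1A fell by 1.27 (adjusted p = 0.012), but it was not called without D0 WT library 2, KO library 2 or KO library 3 (log2 fold changes -0.86, -0.96 and -1.13). HIST1H1D and HIST1H1B did not pass, with log2 fold changes of 0.00 and 0.85. The summed H1 level was 59.5 ± 8 CPM in KO and 26.4 ± 1.6 CPM in WT, a log2 ratio of 1.17 that became -0.39 when HIST1H1C was left out.

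Of 12 tested H2A genes, 10 rose. HIST1H2AC had 70.2, 73.6 and 79.7 CPM in KO libraries, against 13.9, 12.9 and 15.9 CPM in WT libraries. Every KO value was above every WT value, and the log2 fold change was 2.38 (SE 0.16, adjusted p = 3.4e-10). HIST1H2AG reached 4.28, 4.72 and 5.39 CPM in KO and 2.59, 2.33 and 3.03 CPM in WT, a log2 fold change of 0.85 (SE 0.15). HIST1H2AK and HIST1H2AH did not pass (0.34 and 0.59). Summed H2A was 95.2 ± 8.5 CPM in KO and 24.5 ± 2.7 CPM in WT libraries.

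In the H2B group 13 of 16 tested genes rose. HIST1H2BJ had 18.4, 21.4 and 27.1 CPM in KO libraries and 2.79, 2.46 and 3.06 CPM in WT libraries. These groups were far apart, with a log2 fold change of 3.0 (SE 0.18, adjusted p = 1.3e-10). HIST1H2BK followed the same order, at 59.1, 61.4 and 79.3 CPM in KO and 13.4, 15.2 and 15 CPM in WT (log2 fold change 2.19, SE 0.17, adjusted p = 3e-09). HIST1H2BD had 13.8, 14 and 16.5 CPM in KO and 3.72, 3.47 and 4.6 CPM in WT libraries, again without overlap (log2 fold change 1.91). HIST2H2BE, on chromosome 1, moved less, with 8.01, 8.43 and 9.1 CPM in KO and 4.89, 4.13 and 5 CPM in WT (log2 fold change 0.86, SE 0.17). HIST1H2BE passed with a log2 fold change of 0.77 but not in DESeq2, nor without KO library 3, WT library 1 or WT library 3.

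**Figure D2:**
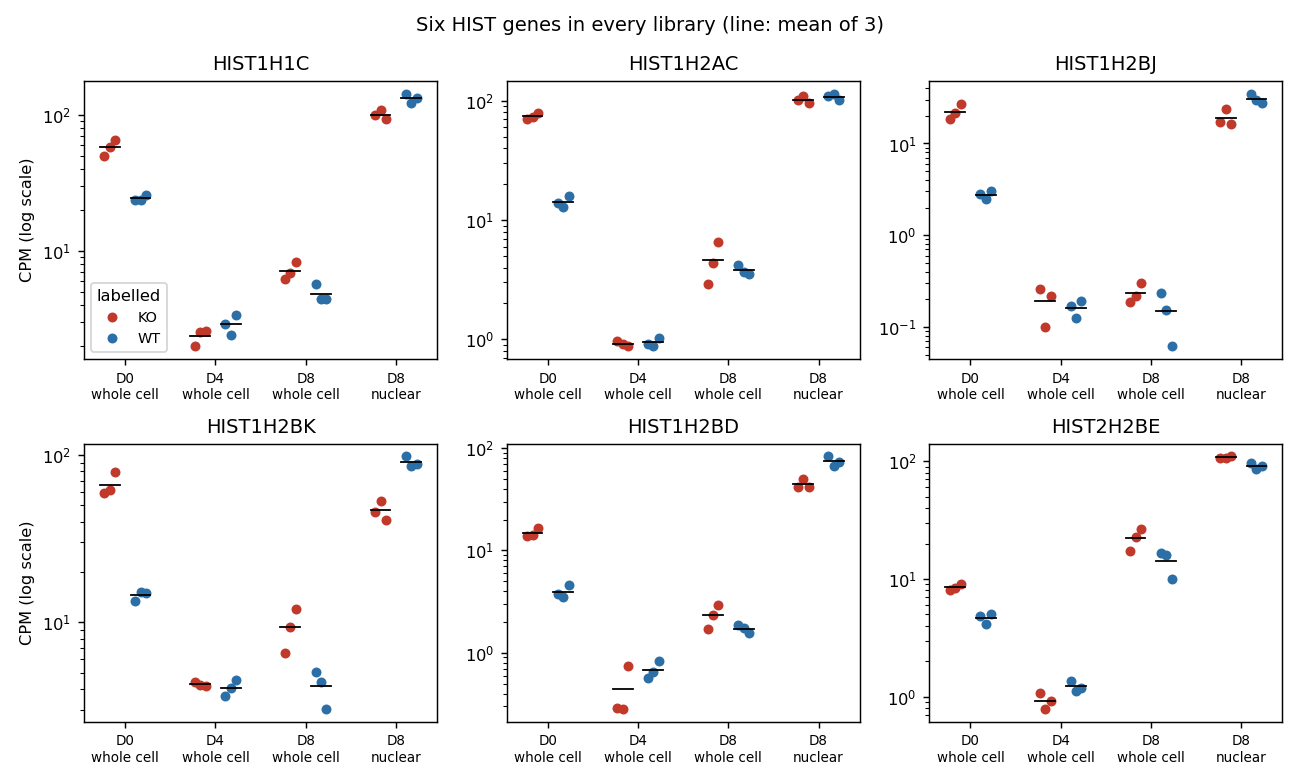
CPM (log scale) of the 6 genes that reached a mean of 10 CPM in at least 1 whole-cell group, for every library by day and fraction; libraries labelled KO are red and on the left, WT blue and on the right, and lines are means of 3. At D0 the KO libraries lie above WT in every panel, and HIST2H2BE is the gene that is higher at D8 than at D0.

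H3 and H4 genes had low levels at D0, with 7 of 9 tested H3 genes and 5 of 9 tested H4 genes called higher. HIST1H3H had 3.06, 3.39 and 3.47 CPM in KO and 0.722, 1.09 and 1.09 CPM in WT libraries (log2 fold change 1.78, SE 0.22). HIST1H3D was counted 46 times over the KO libraries and 3 times over the WT libraries, a ratio of 15 with a 95% counting interval of 4.82 to 75.4. It had at most 7 counts in any whole-cell library outside D0 KO, the group through which it passed the filter. HIST1H4H had 4.47, 5.74 and 5.64 CPM in KO and 1.15, 0.857 and 1.36 CPM in WT (log2 fold change 2.23, SE 0.18, adjusted p = 5.3e-09). HIST1H4I was at 4.55, 5.77 and 6.01 CPM in KO and 2.29, 2.06 and 2.3 CPM in WT (log2 fold change 1.30). For each of these genes the lowest KO library was above the highest WT library. HIST1H3C and HIST1H4C, by contrast, did not pass, with 0.461 ± 0.074 and 0.346 ± 0.22 CPM in KO and 0.364 ± 0.043 and 0.256 ± 0.095 CPM in WT.

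Genes known to make polyadenylated RNAs as well (HIST1H1C, HIST1H2AC, HIST1H2BC, HIST1H2BD, HIST1H2BJ, HIST1H2BK, HIST2H2BE, HIST3H2A and HIST4H4) all passed the filter. All 9 were called higher in D0 KO, with log2 fold changes of 0.72 to 3.0 and a median of 1.91. Together they summed to 257 ± 32 CPM in KO and 69.7 ± 5.1 CPM in WT libraries, most of the HIST total in either. Of the genes annotated for 100 or more bases past the hairpin, 17 of 18 tested were higher (median 1.64). Where the annotation ended within 100 bases of it, 4 of 5 were higher (median 1.09), and of genes with no annotated hairpin 15 of 28 were higher and 2 lower (median 0.93). These classes describe the annotation and not the RNA, and their ranges overlapped.

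In 10 pairs of HIST genes the partners were transcribed away from each other from overlapping promoter windows. At D0, both partners were called higher in 8 of the 10. Of all tested HIST genes 70.6% were called higher at D0, and whether partners moved together beyond that share was not tested. In the pair of HIST1H3D and HIST1H2BF, HIST1H3D was matched through a RefSeq start upstream of its GENCODE gene, and it had 3 counts over the D0 WT libraries. HIST1H2BC and HIST1H2AC had log2 fold changes of 1.98 and 2.38, and HIST1H2BL and HIST1H2AI had 1.17 and 1.07. HIST1H2BJ and HIST1H2AG, which share the stretch printed above, had 3.0 and 0.85. HIST1H2BN and HIST1H2AK both did not pass, at 0.47 and 0.34. In the remaining pair HIST1H2AJ was called (0.97), though not without KO library 3 or WT library 3, and its partner HIST1H2BM was not tested.

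Other genes tied to S phase and histone supply were measured beside them. Of 20 S phase genes 16 were higher and 1 lower in KO at D0, with a median log2 fold change of 0.46. RRM2, a ribonucleotide reductase subunit, had 260 ± 8 CPM in KO and 133 ± 11 CPM in WT libraries (log2 fold change 0.97), and the helicase subunit MCM6 had 342 ± 8.7 and 242 ± 3 CPM (0.50). Of 18 factors of histone gene transcription and 3′ end formation, 8 were higher and 2 lower, with a median of 0.10. NPAT, which activates histone gene transcription, rose by 0.27 on the log2 scale, CASP8AP2 by 0.35 and SLBP by 0.17. LSM11, a protein of the U7 particle that directs the cleavage of histone pre-mRNA, fell by 0.87, with 18 ± 0.97 CPM in KO and 33 ± 1.4 CPM in WT. Of 15 histone chaperones 8 were higher and 3 lower, led by CHAF1A, the large subunit of the chromatin assembly factor at replication forks, with 122 ± 8 CPM in KO and 75.2 ± 4.2 CPM in WT (0.70). Among 11 tested genes listed as replication-independent histones, H2AFX and H2AFJ rose, by 0.64 and 0.50 on the log2 scale, and 4 fell. The listed genes summed to 2610 ± 230 CPM in KO and 2560 ± 190 CPM in WT. Summed levels of 6 RNAs that lack a poly(A) tail, such as RN7SK and RMRP, were 9.04 ± 9.5 CPM in KO and 4.66 ± 1.6 CPM in WT. Pluripotency markers summed to 6130 ± 280 CPM in KO and 5850 ± 150 CPM in WT. The part of S phase genes or of poly(A) selection in the HIST difference was not tested.

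At D4, HIST levels were low in both genotypes and few genes differed. Summed levels ran from 18.4 to 22.8 CPM in KO and from 22.3 to 28.3 CPM in WT libraries, which overlap. By edgeR 0 of 51 HIST genes were called higher and 4 lower, against 16.3% and 12% of all tested genes, with a median log2 fold change of -0.44. DESeq2 called 0 higher and 3 lower, and at an unadjusted p under 0.05 edgeR had 1 higher and 9 lower. Of all called genes 57.6% were higher with TMM factors and 73.8% with total counts, and with total counts 0 HIST genes were called lower. Fitting only the D4 libraries left 2. The 4 were HIST1H3E (-1.36), HIST1H2AJ (-1.26), HIST1H1D (-0.87) and HIST1H2AG (-0.56). HIST1H2AG had 0.567, 0.746 and 0.85 CPM in KO and 1.05, 0.915 and 1.2 CPM in WT libraries, with no overlap and adjusted p = 0.04. None of the 4 calls held throughout, since the count was 0 without KO library 1 and 1 without KO library 2 or WT library 1 or 3. The 9 polyadenylated genes did not pass, and the median of their log2 fold changes was -0.29. Of the 20 S phase genes 16 were lower, with a median of -0.26, and their part in the HIST values was not tested.

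**Figure D3:**
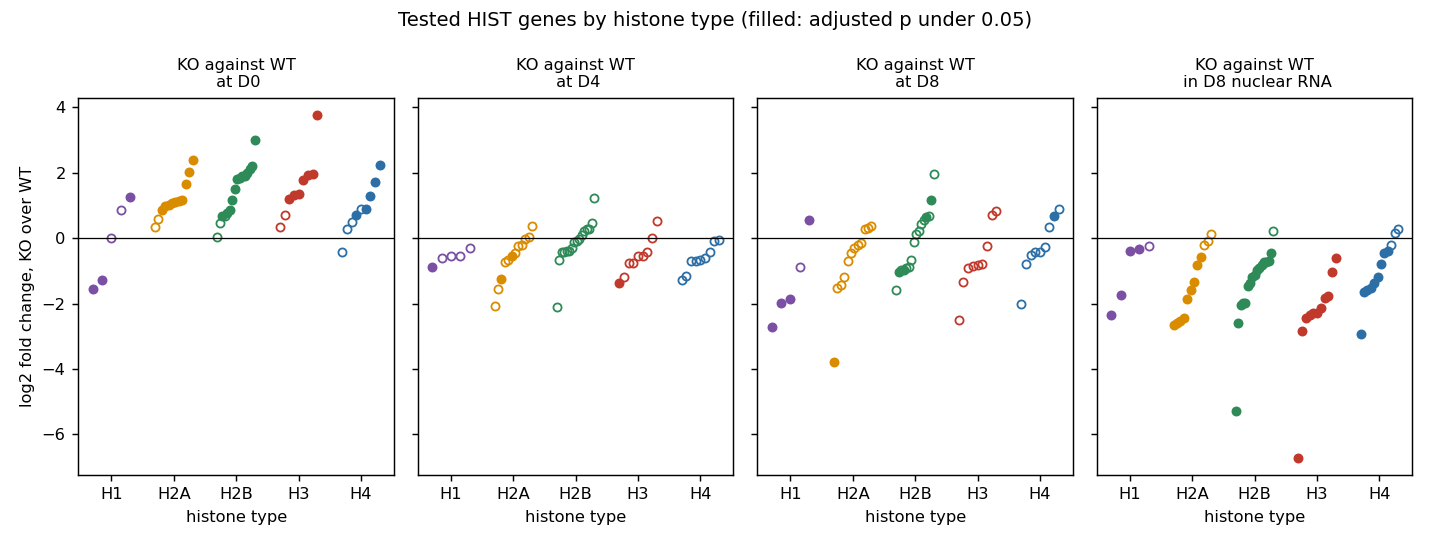
Log2 fold change, KO over WT, of each tested HIST gene (51 in whole-cell, 57 in nuclear libraries), grouped by histone type and ordered by value within a type; filled points passed an adjusted p under 0.05. Filled points lie above 0 at D0 for all but 2 H1 genes and below 0 in nuclear RNA for all 5 types.

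At D8, the libraries labelled KO had 4 of 51 HIST genes called higher and 6 called lower, against 29.4% and 26.2% of all tested genes. With total counts in place of TMM factors 10 HIST genes were lower, and the share of all called genes that were higher was 37.6% in place of 52.9%. The median log2 fold change over all genes was 0.01 with TMM factors and -0.12 with total counts. The 4 higher genes were all in the list of polyadenylated histone genes. HIST2H2BE had 17.4, 22.6 and 26.5 CPM in the libraries labelled KO and 16.5, 16 and 10.1 CPM in WT libraries. Each KO library was above each WT library, although the nearest values were close, and the log2 fold change was 0.64 (SE 0.15, adjusted p = 0.0013). HIST1H2BK had 6.58, 9.39 and 12 CPM in the libraries labelled KO, against 5.02, 4.41 and 3.03 CPM in WT (log2 fold change 1.17, SE 0.18, adjusted p = 1.2e-05). HIST1H1C was at 6.27, 6.92 and 8.3 CPM in the libraries labelled KO and 5.71, 4.44 and 4.45 CPM in WT (0.56), and HIST4H4 was at 1.36, 1.38 and 1.22 CPM in the libraries labelled KO and 0.823, 0.824 and 0.818 CPM in WT (0.68). Without KO library 1, 7 HIST genes were called higher.

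In the H1 group, 3 of 5 tested genes were called lower in the libraries labelled KO at D8. HIST1H1D (H1.3) had 0.232, 0.158 and 0.0675 CPM there and 0.948, 1.03 and 1.11 CPM in WT libraries. The groups were well apart, with a log2 fold change of -2.72 (SE 0.34, adjusted p = 7.9e-07). HIST1H1A and HIST1H1E fell by 1.97 and 1.87 on the log2 scale, and the summed H1 level was 7.59 ± 0.93 CPM in the libraries labelled KO and 6.72 ± 0.68 CPM in WT. Left without HIST1H1C, the H1 sums had a log2 ratio of -2.13. HIST1H2BH fell by 1.03 and HIST2H2BC by 0.97. HIST1H2AH was not counted in the libraries labelled KO and was counted 7 times in WT, at least 1.76-fold lower (with the floor set at 3 counts for the whole group), and its call was lost without WT library 2 or any single KO library, and with the replicate number as a block. All called S phase genes, 18 of 20, were lower too (median -0.64), with summed levels of 848 ± 36 CPM in the libraries labelled KO and 1140 ± 99 CPM in WT. Cardiomyocyte markers summed to 27700 ± 2400 CPM in the libraries labelled KO and 12400 ± 3500 CPM in WT, with 5 of 6 higher and 1 lower. All 5 surface ectoderm and amnion markers were lower, with sums of 10.6 to 19 CPM in the libraries labelled KO and 450 to 892 CPM in WT. Endothelial markers summed to 602 ± 22 CPM in the libraries labelled KO and 271 ± 26 CPM in WT (2 of 3 higher). Endoderm markers summed to 298 ± 69 and 159 ± 44 CPM (3 of 4 higher, 1 lower). The part of these cell populations in the D8 HIST values was not tested. The 6 RNAs without a poly(A) tail summed to 21.4 ± 5.5 CPM in the libraries labelled KO and 7.35 ± 0.98 CPM in WT, and their part was not tested either.

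Across days, HIST levels fell sharply between D0 and D4 in both genotypes. In KO the sum was 316 ± 39 CPM at D0, 20.3 ± 2.2 CPM at D4 and 56.8 ± 13 CPM at D8. In WT it was 96.9 ± 7.6, 25.5 ± 3 and 42.9 ± 5.5 CPM. Between D4 and D0, 43 of 51 HIST genes were lower and 1 was higher in KO, against 38.5% and 44.1% of all tested genes (median log2 fold change -3.06). In WT, 33 were lower and 2 higher, against 39.1% and 42% (median -1.42). Without D0 WT library 1 or 2, or D4 WT library 1 or 3, 1 gene was called higher. HIST1H2BJ had log2 fold changes of -6.82 in KO and -4.09 in WT, and HIST1H2AC of -6.34 and -3.93. The genes called higher at D4 encode linker histones, HIST1H1E in both genotypes (1.72 in KO and 0.70 in WT) and HIST1H1B in WT (1.90). The WT call of HIST1H1E was lost in 5 of 11 alternatives (range 0.59 to 0.88), and that of HIST1H1B in 0. All 9 polyadenylated genes fell in both genotypes. The S phase genes summed to 2300 ± 73 CPM at D4 and 3740 ± 110 CPM at D0 in KO (16 of 20 lower, 2 higher), and to 2760 ± 75 and 2800 ± 68 CPM in WT (8 lower, 9 higher).

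The fall from D0 to D4 was larger in KO. Tested as the KO effect at D4 minus that at D0, 30 of 51 HIST genes were lower and 0 higher by edgeR, against 19.1% and 20% of all genes, with a median of -1.62. DESeq2 called 31 lower and 0 higher, and at an unadjusted p under 0.05 edgeR had 32 lower and 1 higher. Without D4 KO library 1, 1 gene was called higher. All 9 polyadenylated genes were among the 30, with a median of -2.12 and a range of -2.73 to -0.82. Of all genes called in this test 51.1% were higher with TMM factors and 62.9% with total counts, under which the HIST median was -1.52. The S phase genes were lower in this test too, 19 of 20, with a median of -0.68.

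From D4 to D8 HIST genes were called in both directions, as were all tested genes. In the libraries labelled KO 9 HIST genes were higher and 16 lower at D8 than at D4. These were 17.6% and 31.4% of those tested, against 36.1% and 38.9% of all genes. In WT 8 were higher and 19 lower (15.7% and 37.3%), against 35% and 33.8%. Fitting only the groups compared left 6 lower in KO and 10 lower in WT. HIST2H2BE rose to 22.2 ± 4.6 CPM at D8 in KO, against 0.928 ± 0.15 CPM at D4, and to 14.2 ± 3.5 CPM at D8 in WT, against 1.22 ± 0.13 CPM at D4. Its log2 fold changes were 4.56 (SE 0.20) in KO and 3.53 (SE 0.20) in WT, and it made up 39% of HIST counts in KO and 32.7% in WT at D8. HIST1H2AC, HIST1H2BD, HIST3H2A and HIST2H2BF also rose, by 2.31, 2.44, 2.17 and 1.56 in KO and by 2.01, 1.34, 1.78 and 1.97 in WT. Genes that fell included HIST1H1B (-3.08 in KO and -2.81 in WT), HIST1H3B (-3.17 and -2.37) and HIST1H3A (-2.55 and -2.47). All 20 S phase genes were called lower in both genotypes over this interval, with medians of -1.64 in KO and -1.40 in WT. The KO effect at D8 minus that at D4 was higher for 6 HIST genes and lower for 2, against 19.6% and 21.9% of all genes. With total counts 3 were higher and 4 lower, the HIST median was -0.03 in place of 0.18, and the share of all called genes that were higher was 24.9% in place of 47.2%. Without D4 KO library 1, 3 genes were higher. Leaving out any of D4 WT library 2, D4 KO library 3, D8 WT library 3, D8 KO library 1 or D8 KO library 4 left 1 gene lower.

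HIST genes took a far larger part of the counts in nuclear than in whole-cell libraries at D8. The tables were normalised separately, so levels were set side by side as CPM over the 38917 genes present in both, without a test. HIST1H4C had a mean of 136 CPM in nuclear and 0.067 CPM in whole-cell libraries labelled KO, and 216 and 0.123 CPM in WT libraries. HIST1H2AC was at 88.2 CPM in nuclear and 4.41 CPM in whole-cell libraries labelled KO, and at 129 and 4.01 CPM in WT. Every HIST gene with 10 or more counts was higher in nuclear RNA, 62 of 62 in the libraries labelled KO and 67 of 67 in WT. Of all genes with 10 or more counts, 27273 of 35690 and 27775 of 36886 were higher there. Over the HIST genes the median log2 ratio of nuclear to whole-cell level was 7.02 in the libraries labelled KO and 8.34 in WT. Over all genes it was 2.61 and 3.17. Without genes at 0 in one fraction (5 and 2 HIST genes), the HIST medians were 6.84 and 8.42. The medians over all genes were then 1.48 and 2.06. Across types the medians ran from 6.07 for H2B to 8.70 for H4 in the libraries labelled KO, and from 5.97 for H1 to 9.52 for H3 in WT. Polyadenylated HIST genes had lower ratios, with medians of 4.10 in the libraries labelled KO and 5.01 in WT, and HIST3H2A had the lowest of all (0.41 and 0.61). The 12 genes listed as replication-independent histones had medians of -1.26 and -1.54, with 1 higher in nuclear RNA in either genotype. RNAs without a poly(A) tail had 9.94 and 11.27.

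**Figure D4:**
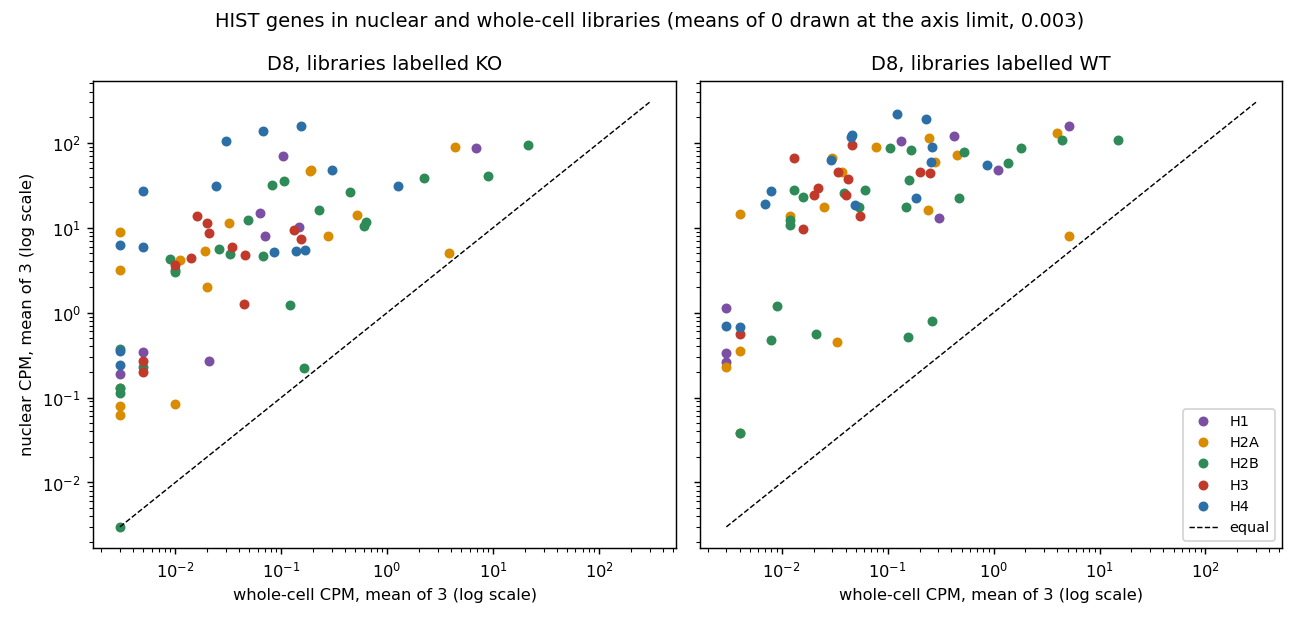
Mean CPM over shared genes (3 libraries, log scales) of each HIST gene in nuclear (vertical) against whole-cell libraries (horizontal) at D8, labelled KO on the left and WT on the right, coloured by histone type; the dashed line marks equal levels. Nearly all genes lie far above the line, and HIST3H2A, with log2 ratios of 0.41 and 0.61, is the nearest to it.

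In nuclear RNA most HIST genes were lower in the libraries labelled KO. Summed levels ran from 1480 to 1820 CPM in the libraries labelled KO and from 2710 to 3080 CPM in WT libraries, with no overlap. Of 57 tested genes 49 were called lower and 0 higher by edgeR, against 32.9% and 31.2% of all 30481 tested genes. DESeq2 called 42 lower and 0 higher, and at an unadjusted p under 0.05 edgeR had 0 higher. Without KO library 2 or WT library 1, 1 gene was called higher. The median log2 fold change was -1.36 over HIST genes and -0.27 over all genes. With total counts the medians were -1.79 and -0.71, and of all called genes 26.3% were higher in place of 48.7%. Without the filter, 41 of 73 HIST genes were lower and 1 was higher, against 14% and 18.5% of all 55548 genes. The HIST median was below that of all genes under both scalings.

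H3 genes had the lowest ratio of sums of the 5 types in nuclear RNA, with all 11 tested genes lower. Their summed level was 83 ± 13 CPM in the libraries labelled KO and 365 ± 8.1 CPM in WT, a log2 ratio of -2.14. H2A sums were 283 ± 22 CPM in the libraries labelled KO and 544 ± 25 CPM in WT (log2 ratio -0.94, with 9 of 12 genes lower). For H2B they were 399 ± 36 and 703 ± 53 CPM (-0.82, with 16 of 17 lower), and for H1 they were 220 ± 27 and 376 ± 35 CPM (-0.77, with 4 of 5 lower). H4 sums were nearest, at 654 ± 76 CPM in the libraries labelled KO and 852 ± 84 CPM in WT (-0.38, with 9 of 12 lower). HIST1H4B, HIST1H4C and HIST1H4E did not pass, with log2 fold changes of 0.29, -0.22 and 0.17. HIST2H2BE (0.23) and HIST1H2AC (-0.09) were also among the 8 that did not pass. The calls of HIST1H1C (-0.40), HIST1H1E (-0.34), HIST4H4 (-0.39), HIST1H4H (-0.47), HIST1H2BN (-0.46) and HIST1H3A (-0.61) were lost in DESeq2 and without the filter. Without KO library 3 the calls of all of these but HIST1H3A were lost, without KO library 1 those of HIST1H1C, HIST1H1E, HIST4H4 and HIST1H2BN, and without WT library 1 those of HIST1H1C, HIST1H1E, HIST4H4 and HIST1H4H. HIST1H1E was also lost without WT library 2, and HIST1H1C and HIST1H1E with the replicate block (-0.40 and -0.35).

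HIST1H3C and HIST1H2BB, neighbours on chromosome 6, had very few counts in the nuclear libraries labelled KO. HIST1H3C was counted 5, 2 and 2 times in the libraries labelled KO and 323, 260 and 265 times in WT libraries, or 0.304 ± 0.21 and 31.6 ± 4.2 CPM. HIST1H2BB was counted 4, 3 and 1 times in the libraries labelled KO and 116, 75 and 91 times in WT, or 0.264 ± 0.17 and 10.5 ± 2.1 CPM. Both genes passed the filter on low counts through the WT libraries alone. The groups did not come near each other for either gene, with log2 fold changes of -6.71 (SE 0.26, adjusted p = 4e-19) and -5.28 (SE 0.35, adjusted p = 9.7e-14). The next in order of size were HIST1H4I (-2.93), HIST1H3G (-2.83) and HIST1H2AL (-2.66). On either side of the pair the tested genes were HIST1H2AB (-1.34) and HIST1H1C (-0.40). In whole-cell libraries HIST1H3C was counted 20, 23 and 31 times in D0 KO and 22, 15 and 20 times in D0 WT libraries. The counts overlap, the CPM values (0.414 to 0.547 in KO and 0.321 to 0.407 in WT) just miss doing so, and the gene did not pass (adjusted p = 0.46). At D8 it was counted 1, 0 and 0 times in the libraries labelled KO and 2, 5 and 3 times in WT (adjusted p = 0.051). HIST1H2BB had at most 5 counts in any whole-cell library and was not tested there.

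**Figure D5:**
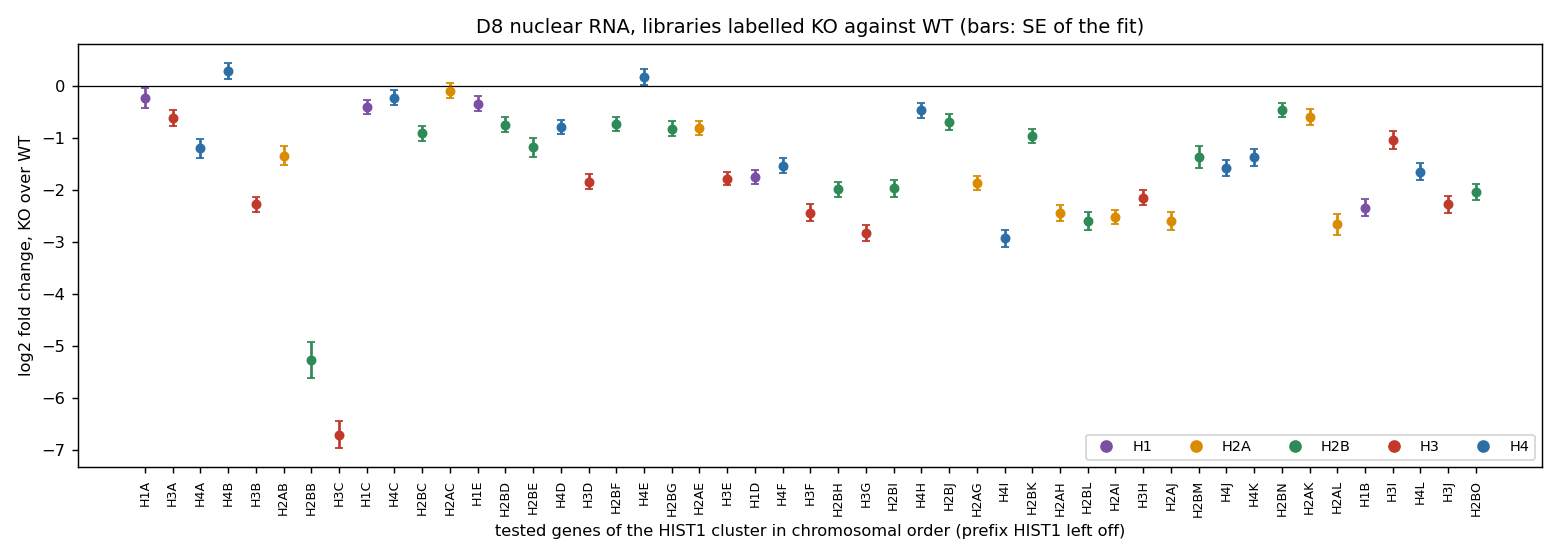
Log2 fold change (libraries labelled KO over WT, bars are SE of the fit) of the tested HIST1 genes in D8 nuclear RNA, in their order along chromosome 6 and coloured by type. HIST1H3C and its neighbour HIST1H2BB lie at -6.71 and -5.28, below every other gene.

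Beside the nuclear difference, the S phase genes were also lower in the libraries labelled KO, 11 of 20 (median -0.66), with sums of 429 ± 42 CPM in the libraries labelled KO and 543 ± 23 CPM in WT. Of the 18 histone mRNA factors 14 were higher, with a median of 0.63, and of the 15 chaperones 10 were higher and 4 lower. NPAT had 40.1 ± 8.2 CPM in the libraries labelled KO and 25.2 ± 3.5 CPM in WT (log2 fold change 0.67), and SLBP had 23.6 ± 5.5 and 15.6 ± 2.2 CPM (0.60). Replication-independent histone genes rose in 6 of 11 and fell in 3, led by H2AFY (macroH2A1) with 404 ± 31 CPM in the libraries labelled KO and 103 ± 6.9 CPM in WT (1.98). RNAs without a poly(A) tail summed to 53900 ± 7100 CPM in the libraries labelled KO and 71800 ± 11000 CPM in WT. Among them RMRP was lower (-1.22) and RN7SK did not pass (0.28). Cardiomyocyte markers summed to 13000 ± 1100 CPM in the libraries labelled KO and 3660 ± 440 CPM in WT, with all 6 higher. Pluripotency markers summed to 30.1 ± 3.8 CPM in the libraries labelled KO and 65.1 ± 3 CPM in WT (4 of 5 lower), and surface ectoderm and amnion markers to 232 ± 140 and 589 ± 160 CPM (4 of 5 lower). Endothelial markers summed to 450 ± 26 CPM in the libraries labelled KO and 50.2 ± 6.1 CPM in WT (1 of 3 higher, 2 lower), and endoderm markers to 289 ± 160 and 15.5 ± 1.8 CPM (4 of 4 higher). The part of any of these in the nuclear HIST difference was not tested.

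Splicing was measured by the authors' deposited tables of skipped exons, which named neither of the compared arms. HIST genes are mostly intronless, and 59 of the 75 had no intron in GENCODE 29. At D0 the authors' deposited table held 3 events in HIST genes, from HIST1H2BJ and HIST1H2BN, at D4 1, at D8 2 and in 293T cells given an siRNA against QKI or a control siRNA 2. None had a deposited FDR under 0.05. The HIST1H2BJ exon lies at chr6:27095043-27095180 (hg19) and is 138 bases long. Its event with the longer flanking exon (27100146-27100541) had 95 junction reads in the first arm and 519 in the second at D0 in the authors' deposited table, with mean inclusion levels of 0.557 and 0.435 and an FDR of 0.684. The event with the other flanking exon (27100304-27100327) had deposited levels of 0.395 and 0.375 at D0, from 154 and 1016 junction reads. At D4 the event with the longer flanking exon had 4 and 3 junction reads in the authors' deposited table. In the 293T table, also deposited by the authors, its levels were 0.509 in the first arm and 0.286 in the second (FDR 0.978) from 25 and 28 junction reads. The other event had 0.42 and 0.375 there, from 44 and 41 junction reads.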

How the data were processed

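Of 30 samples, the 18 whole-cell and 6 nuclear libraries were used as raw counts per gene, deposited by the authors in 2 tables. Per the submitters' processing notes, UMI-tools, cutadapt, STAR, featureCounts and DESeq were named, with build hg19. Not given in the sources used here are versions, strandedness of the counting and which annotation served. Counts of overlapping, antisense or near-identical genes are therefore uncertain. The skipped-exon tables, including that of the 6 siRNA-treated 293T libraries, hold p-values and FDRs computed by the authors, per the file headers in rMATS format, and were copied without a test.

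Each count table was fitted whole with edgeR 4.0.16 in R 4.3.3 (limma 3.58.1; TMM factors, filterByExpr, quasi-likelihood test, two-sided): 1 fit of the 6 whole-cell groups and 1 of the nuclear groups. P-values were adjusted by Benjamini-Hochberg over all tested genes, and called means an adjusted p under 0.05. The biological coefficient of variation was 8.23% and 11.9%. CPM uses the TMM-scaled total. Sums over genes have no test. Counting intervals (95%, exact) and floors (3 counts) cover counting error only. Alternatives were DESeq2 1.42.0, total counts, no filter, fits of only the groups compared, a replicate block and leaving out each library. The edgeR script was tested on simulated data. No pair of libraries agreed fully within sampling noise, but nuclear WT libraries 2 and 3 came close, with a chi-square per degree of freedom of 1.22. The spread between them may be nearly all counting noise. Nuclear KO libraries 1 and 3 had 2.91, and the other pairs had 5.75 to 62.2. Replicate numbers were not taken to pair samples.

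The members, gene lists and tests were chosen with earlier results of these data known, and the 6 RNAs without a poly(A) tail after these data were seen. Genes were named by rule: QKI, HIST genes with a mean of 10 CPM or more in a whole-cell group, the highest gene of each histone type, the 5 highest and 5 lowest called genes without overlap in each comparison, and those with skipped-exon events. Other HIST genes in the text were chosen after their values were seen. Of a list of testis histone genes only HIST1H1T was measured, and it was not tested.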

Additional observations from a re-analysis of the deposited data

Results flagged for a closer look

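By the interaction term of the edgeR fit, the KO effect at D4 minus that at D0 was called lower for 30 of 51 HIST genes and higher for 0. The shares of all tested genes were 19.1% and 20%. For D8 minus D4, 6 were called higher and 2 lower, against 19.6% and 21.9%. Only 18 of these gene and interval pairs are listed here (log2 units, later day minus earlier day). They were kept by the naming rules above, for a large difference or a mean of 10 CPM or more in a whole-cell group. Between D0 and D4 the difference was -3.28 for HIST1H2BL, -2.73 for HIST1H2BJ, -2.57 for HIST1H2BD, -2.12 for HIST1H2BK and -1.26 for HIST2H2BE, all H2B genes. Among H2A genes it was -4.11 for HIST1H2APS4 and -2.42 for HIST1H2AC. It was -3.29 for HIST1H3E, -3.24 for HIST1H3D, -2.97 for HIST1H4D and -1.54 for HIST1H1C. Some of these calls were lost in 1 or more of 17 alternatives. HIST1H2BL, with 2 counts over the D4 KO libraries, ranged from -6.13 to -2.24 and lost its call without D4 WT library 3 (-2.24), D4 KO library 1 (-2.68) or D4 KO library 3 (-2.83). HIST1H3D ranged from -4.08 to -2.77 and lost it without D0 WT library 2 (-2.77) or D4 WT library 3 (-2.90). HIST1H2APS4 was 0.02 without D4 WT library 1, and its call was also lost with the replicate block (-4.05) and without D0 WT library 3, D0 KO library 3, D4 KO library 1 or D4 KO library 3.

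Between D4 and D8, with QKI not lower in the libraries labelled KO at D8, the difference was 1.10 for HIST1H2BD, 1.09 for HIST1H2BK, 1.04 for HIST2H2BE, 0.87 for HIST1H2AG and 0.85 for HIST1H1C. It was -1.85 for HIST1H1D and -1.32 for HIST1H1E. The calls of HIST1H2BD and HIST1H1E were each lost in 7 of 17 alternatives, with ranges of 0.85 to 1.66 and -1.73 to -0.98. For HIST1H2BD these were total counts (0.88), a fit of only the groups compared (1.08), and leaving out D4 WT library 3, D4 KO library 1, D4 KO library 2, D8 WT library 4 or D8 KO library 4. For HIST1H1E they were the replicate block (-0.98), and leaving out D4 WT library 2, D4 KO library 2, D4 KO library 3, D8 WT library 3, D8 KO library 1 or D8 KO library 4. The HIST1H2AG call was lost in 4, with total counts (0.66), without the filter (0.85) and without D4 KO library 1 (0.71) or D8 KO library 4 (0.80).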

How the results depend on the processing

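Most counts of called HIST genes stayed within 1.5 times under the alternatives. With total counts, 0 were lower at D4, 10 lower at D8, and 3 higher and 4 lower for the D8 minus D4 difference; DESeq2 gave 1 higher for WT D4 against D0, and no filter 1 higher in nuclear RNA. Fitting only the groups compared gave 2 lower at D4, and 10 (WT) and 6 (KO) lower at D8 against D4. Same-numbered samples did not deviate together (r -0.26 to 0.32), and the replicate block left 1 lower for the D8 minus D4 difference. Leaving out single libraries gave 30 to 36 higher and 1 to 2 lower at D0, 0 to 5 lower at D4, 4 to 7 higher and 5 to 8 lower at D8, and 0 to 1 higher and 44 to 50 lower in nuclear RNA. It gave 1 to 2 higher for WT D4 against D0, 0 to 1 higher for the D4 minus D0 difference, and 3 to 8 higher and 1 to 3 lower for D8 minus D4. HIST1H2APS4 ranged from -6.15 to 0.02. Without the highest gene of a type, log2 ratios of sums at D0 were -0.39 (H1), 1.02 (H2A) and 1.66 (H2B), at D4 -0.35 (H2B), at D8 -2.13 (H1) and 0.31 (H4), and in nuclear RNA -1.02 (H1) and -1.27 (H2A). With total counts they were 0.10 for H4 at D8, and -1.21, -1.39, -1.26, -2.59 and -0.82 for nuclear H1, H2A, H2B, H3 and H4. Skipped-exon events with at least 10 junction reads numbered 0 at D4, 0 at D8 and 1 in 293T. Causes were not tested.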
